A study of Mus musculus with 28 samples.

Results

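Transcripts of inflammation genes in scaffold implants of 8 tumor-bearing mice were compared with those of 8 healthy mice, all at day 14. The samples were chosen by the day and the condition that the labels give, and they are 16 of the 28 samples of the series. The mice were female BALB/c, an inbred strain. Each carried a microporous scaffold of the polymer polycaprolactone, which the labels describe as filling with immune, stromal and epithelial cells of the host. The tumor-bearing mice had been inoculated with 4T1-luc2-tdTomato cells, a BALB/c mammary carcinoma line with a luciferase and a red fluorescent reporter, and days are counted from inoculation. The labels list that line for the healthy mice as well, and the field for the condition at the time of analysis formed the groups; the age of the mice is not given in the sources used here. The other 12 samples, 3 per condition at day 7 and at day 21, entered as partners for the day 14 difference and to estimate the spread. RNA came from whole scaffolds, so fewer cells of a type and less RNA per cell cannot be told apart.

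Neutrophils are short-lived phagocytes made in the bone marrow, and they load their granules in sequence as they mature. Proteases of the primary granules, such as proteinase 3 and neutrophil elastase, are transcribed in early precursors, and lactoferrin and cathelicidin of the secondary granules follow. The calprotectin subunits and the chemotactic receptors mark later cells that circulate and enter tissue, and tumors of the 4T1 line are known for expanding granulocytic cells in their host.

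Each sample was run on an OpenArray TaqMan panel with 648 assays for 584 genes. The unit used throughout is the log2 of the authors' relative quantity, which is minus the number of PCR cycles between an assay and the reference genes, so that 1 unit is a doubling. Of 10368 reactions at day 14, 1375 (13.3%) gave no quantification cycle (Cq). Mice are named by the replicate numbers of the labels, 7 to 14 for healthy and 15 to 22 for tumor-bearing mice. The physical panels, lettered A to G here, were not spread evenly. Healthy mice 7 to 10 filled panel D and tumor-bearing mice 15 to 18 filled panel G, while the other 4 mice of each condition shared panels A, B, E and F, as 4 pairs of a healthy and a tumor-bearing mouse. Values on shared panels are therefore given beside those on panels D and G. Healthy mice 13 and 14 and tumor-bearing mouse 21 stood apart, with 173, 113 and 159 reactions without a Cq against 62 to 86 in the other 13 mice.

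Of 588 assays tested, 14 passed an adjusted p of 0.05 (percent called 2.38%), 10 higher (1.7%) and 4 lower (0.68%) in tumor-bearing mice. The 10 higher assays measured 9 genes, and all 9 are on the lists of neutrophil genes: Prtn3, Ela2, Camp, Ltf, Pglyrp1, S100a8, S100a9, Il8rb and Fpr1. The lists were chosen with earlier results of these data known, so membership and list medians describe the data and test nothing. The 4 lower assays measured Bmp15, Ghrl, F3 and Ltbp4. The median over all tested assays was -0.08, and 540 of them lay within 1 log2 unit of 0. At an unadjusted p under 0.05 there were 21 assays higher (3.57%) and 41 lower (6.97%). Of 373 assays with both values in all 4 panel pairs, 28 were higher in every tumor-bearing partner (7.51%) and 32 lower (8.58%). When samples were scaled to their own median Cq and not to reference genes, the overall median moved to 0.03 and the split of the 14 calls became 12 higher and 2 lower, with 12 of the calls shared. With the panel as a fixed block 11 assays passed, 8 of them shared. The count was 14 again without the 3 mice that stood apart, with 11 calls shared (Ltf, Ghrl and Ltbp4 were lost), and it was 8 without healthy mouse 11 and 8 without tumor-bearing mouse 22, each time 7 higher and 1 lower. No assay passed when each was tested by an exact permutation of the 16 mice, where 56 had an unadjusted p under 0.05 and the smallest adjusted p was 0.103. The smallest p that 8 against 8 mice allow is 0.000155. It is too large for a lone assay to pass among 588, but several assays at it would pass together. With fewer values Prtn3 and Ela2 could not go below the exact p of 0.00606 and 0.00126 that they had. S100a9 and Fpr1 had all 16 values and did not reach the smallest p, at an exact p of 0.000777 and 0.00155.

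**Figure D1:**
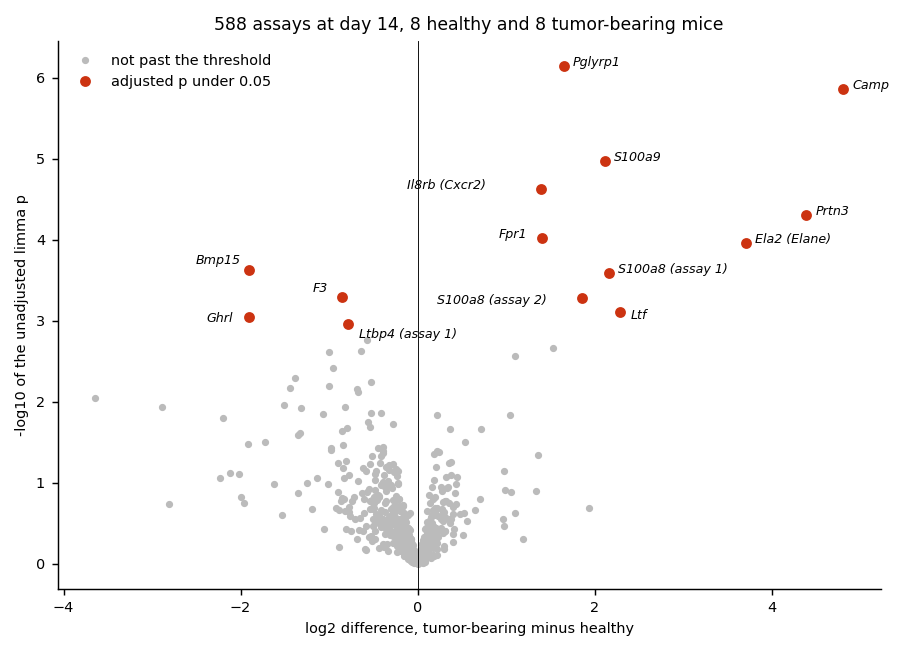
Each point is 1 of 588 assays at day 14; the x axis gives the log2 difference, tumor-bearing minus healthy, and the y axis the -log10 of the unadjusted limma p. The 14 assays past the adjusted threshold are red and named, with 10 neutrophil assays to the right and 4 assays to the left of 0.

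The 2 primary granule proteases and 2 secondary granule genes had the largest rises, and the sequences around their transcription starts are shown here for that reason. Each is the RefSeq window from 250 bases before to 50 bases after the start on build GRCm38.p6, given on the strand of the gene. Capitals mark matches to 3 short motifs searched on both strands: TTGCNNAA, a form bound by C/EBP factors of granulocytes, GAGGAA, the core of PU.1 sites of myeloid cells, and TGTGGT, the core of RUNX sites.
Prtn3, chr10:79879417-79879716, plus strand: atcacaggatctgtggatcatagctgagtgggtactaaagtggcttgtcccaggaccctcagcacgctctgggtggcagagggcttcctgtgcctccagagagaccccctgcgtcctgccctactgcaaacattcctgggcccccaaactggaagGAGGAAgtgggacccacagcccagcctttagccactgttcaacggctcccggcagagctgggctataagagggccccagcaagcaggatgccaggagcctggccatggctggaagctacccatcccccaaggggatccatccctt
Ela2 (current symbol Elane), chr10:79886062-79886361, plus strand: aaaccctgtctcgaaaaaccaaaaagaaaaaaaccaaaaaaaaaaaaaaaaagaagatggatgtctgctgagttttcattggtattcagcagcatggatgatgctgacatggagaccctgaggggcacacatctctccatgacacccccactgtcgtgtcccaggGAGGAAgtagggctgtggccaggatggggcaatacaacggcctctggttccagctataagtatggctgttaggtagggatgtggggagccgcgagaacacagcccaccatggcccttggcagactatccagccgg
Ltf, chr9:111019042-111019341, plus strand: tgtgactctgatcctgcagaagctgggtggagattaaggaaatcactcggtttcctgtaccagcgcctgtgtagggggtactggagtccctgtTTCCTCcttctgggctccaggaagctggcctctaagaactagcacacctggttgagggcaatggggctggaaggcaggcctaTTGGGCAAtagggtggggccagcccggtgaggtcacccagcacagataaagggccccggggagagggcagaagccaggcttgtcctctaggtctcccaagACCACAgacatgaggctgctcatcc
Camp, chr9:109849407-109849706, minus strand: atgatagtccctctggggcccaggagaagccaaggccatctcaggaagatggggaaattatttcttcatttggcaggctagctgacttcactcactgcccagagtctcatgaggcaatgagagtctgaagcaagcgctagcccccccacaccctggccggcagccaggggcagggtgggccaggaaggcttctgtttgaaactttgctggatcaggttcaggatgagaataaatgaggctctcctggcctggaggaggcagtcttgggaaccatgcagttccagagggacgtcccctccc
GAGGAA begins 95 bases before the Prtn3 start and 85 bases before the Ela2 start, in the same orientation. The Ltf window holds 1 match to each of the 3 motifs, and the Camp window holds none of these letters. Among 32851 RefSeq windows of this length, 28.3% held the PU.1 letters, 10.8% the C/EBP letters and 16.8% the RUNX letters, so a match is a description of the sequence and not a site. Prtn3 and Ela2 are next to each other in the annotation, and Cfd, which encodes the adipocyte product adipsin, is the nearest protein-coding gene on the other side of Ela2.

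Both measured genes of the primary granule list rose. Prtn3 encodes proteinase 3, a serine protease of azurophil granules. It gave a Cq in 3 healthy mice, at -11.17 in mouse 12, -10.48 in mouse 14 and -9.63 in mouse 10, and in all 8 tumor-bearing mice, where the lowest value was -8.03, the median -6.15 and the highest -3.70. Every tumor-bearing mouse was above every healthy mouse with a value. The difference was 4.39 ± 0.80 (SE; adjusted p = 0.00581, limma), a 20.95-fold rise with a 95% interval of 6.48 to 67.8, and the fit left out the 5 healthy mice without a Cq. Ela2 encodes neutrophil elastase. Its 5 healthy values ran from -13.92 to -10.35 with a median of -11.21, and its 7 tumor-bearing values (no Cq in mouse 21) ran from -9.91 to -6.55 with a median of -8.65. These groups did not overlap either, and the difference was 3.71 ± 0.76 (adjusted p = 0.00916), or 13.1-fold. Over the 588 assays, 4 had tumor-bearing values wholly above the healthy ones (0.68%); the other two, Cmtm2b and assay 1 of Apoa1, were named after their values were seen and had adjusted p-values of 0.441 and 0.676. Cfd, the neighbour of Ela2, had a difference of -0.58 ± 1.33 (adjusted p = 0.911).

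In both proteases the tumor-bearing mice fell into levels by panel. Prtn3 was between -8.03 and -7.17 in the 4 mice of panel G and between -5.14 and -3.70 in the 4 mice on shared panels, and Ela2 was between -9.91 and -8.65 on panel G and between -6.82 and -6.55 on shared panels. The difference between conditions was 6.07 on shared panels and 1.95 on panels D and G for Prtn3, resting on 2 and 1 healthy mice with a value. It was 5.92 against 1.85 for Ela2, on 2 and 3 healthy mice. With the mice of panels D and G as the only day 14 mice, Ela2 did not pass (adjusted p = 0.178). The direction was the same in both kinds of panel, and it was the same in the 2 pairs that had both values, at 6.05 and 5.43 for Prtn3 and 7.38 and 4.39 for Ela2. Whether panel or mouse goes with these levels cannot be told apart, since panel G held 4 tumor-bearing mice and no healthy mouse.

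Of the 5 genes on the list of secondary and tertiary granule proteins, 4 could be tested, and 3 rose; the median of the 4 was 1.97, against -0.08 over all assays. Camp, the cathelicidin gene whose product is an antimicrobial peptide, had the largest difference of the panel among assays past the threshold. Its 7 healthy values ran from -11.97 to -6.45 with a median of -10.12, and its 8 tumor-bearing values from -7.10 to -3.23 with a median of -6.27. Healthy mouse 14, one of the mice with many missing reactions, held the highest healthy value, and 6 of 8 tumor-bearing mice were above it. The difference was 4.81 ± 0.73 (adjusted p = 0.000403), 28.0-fold with an interval of 9.76 to 80.3, and it was positive in 4 of 4 panel pairs, at 5.22, 8.06, 6.60 and 3.21. Tumor-bearing mice 20, 21 and 22 lay between -3.52 and -3.23, and mouse 19 with the 4 mice of panel G between -7.10 and -6.23. The difference was 5.78 on shared panels and 3.63 on panels D and G.

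Ltf encodes lactoferrin, an iron-binding protein of secondary granules. Its healthy values ran from -7.19 to -3.56 with a median of -6.28, and its tumor-bearing values from -4.54 to -1.55 with a median of -3.73. The groups overlapped, with healthy mice 8 and 12 inside the range of the tumor-bearing mice. The difference was 2.28 ± 0.59 (adjusted p = 0.0378), and this call was lost when healthy mouse 9, 10, 11 or 13 or tumor-bearing mouse 15, 20, 21 or 22 was left out, with adjusted p-values up to 0.109 and differences of 1.97 or more, and without the 3 mice that stood apart (1.85, adjusted p = 0.132). It was 2.81 on shared panels and 1.63 on panels D and G, and 2.81 (adjusted p = 0.212) with the panel as a fixed block. Pglyrp1 encodes a peptidoglycan recognition protein stored in neutrophil granules. It ran from -7.02 to -5.59 in healthy mice, median -6.22, and from -5.60 to -3.84 in tumor-bearing mice, median -4.76. Only tumor-bearing mouse 17, at -5.60, was not above healthy mouse 12, at -5.59. The difference of 1.65 ± 0.25 (adjusted p = 0.000403) had the smallest standard error of the 10 rises, and was 1.96 on shared panels and 1.31 on panels D and G.

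Chi3l3 (current symbol Chil3), a chitinase-like protein made by neutrophil precursors and by alternatively activated macrophages, did not pass the threshold. It ran from -9.74 to -6.28 in healthy mice and from -7.41 to -4.44 in tumor-bearing mice, with a difference of 1.53 ± 0.44 (adjusted p = 0.0787) that was positive in 4 of 4 panel pairs. Without healthy mouse 14 its adjusted p was 0.0343 at a difference of 1.74, without tumor-bearing mouse 17 it was 0.0415 at 1.68, and without the 3 mice that stood apart 0.0272 at 1.67. Itgb2l, an integrin beta chain of maturing neutrophils, had too few healthy values to be tested for level. It gave a Cq in 8 of 8 tumor-bearing mice and in healthy mouse 10, always late, between cycle 28.8 and cycle 31.8. The 1 healthy value was not lower, at a Cq of 29.5 against a tumor-bearing median of 29.7. The authors' fold change, which rests on that 1 healthy mouse, was 0.703. By Fisher's exact test on the number of mice with a Cq, Itgb2l had the smallest p of the 276 assays examined (p = 0.0014, adjusted p = 0.386). With the highest Cq of the panel in place of missing reactions it could be tested, and it was the only assay called there and not otherwise.

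Calprotectin, the dimer of S100a8 and S100a9 and a main cytosolic protein of neutrophils, was measured by 3 assays, and all 3 rose. S100a9 ran from -3.24 to -0.72 in healthy mice with a median of -2.01, and from -1.31 to 1.34 in tumor-bearing mice with a median of 0.21. All tumor-bearing mice but mouse 17 were above every healthy mouse. The difference was 2.12 ± 0.38 (adjusted p = 0.0021), 4.34-fold, and the 4 panel pairs gave 2.03, 2.06, 1.98 and 3.71; panels D and G gave 1.72. S100a8 had 2 assays, with mice 20 to 22 highest in both. Assay 1 ran from -4.22 to -1.15 in healthy and from -2.24 to 1.21 in tumor-bearing mice, with a difference of 2.17 ± 0.50 (adjusted p = 0.0169). Assay 2 ran from -2.68 to -0.06 and from -1.16 to 2.26, with a difference of 1.85 ± 0.46 (adjusted p = 0.0283). The call of assay 1 was lost without healthy mouse 11 (adjusted p = 0.0504, difference 2.00) and without tumor-bearing mouse 22 (0.0507, 1.99). That of assay 2 was lost without healthy mouse 11 or tumor-bearing mouse 20, 21 or 22, with adjusted p-values up to 0.0909 and differences of 1.60 or more.

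Of 9 neutrophil surface receptors and oxidase subunits, 2 rose and 7 did not pass; all 9 estimates were above 0, with a median of 0.21. Il8rb (current symbol Cxcr2), the receptor through which neutrophils follow CXC chemokines, ran from -5.66 to -4.04 in healthy mice and from -4.36 to -3.13 in tumor-bearing mice. All tumor-bearing mice but mouse 17 were above every healthy mouse, and the difference was 1.39 ± 0.26 (adjusted p = 0.00344). Fpr1, a receptor for formylated bacterial peptides, ran from -6.26 to -3.69 and from -4.54 to -2.87, with a difference of 1.40 ± 0.30 (adjusted p = 0.00916). Healthy mouse 10 was the highest healthy mouse for Fpr1, and 3 tumor-bearing mice were above it. For these 2 receptors the shared panels and panels D and G gave close differences, 1.49 against 1.29 for Il8rb and 1.38 against 1.42 for Fpr1, although Fpr1 did not pass with the panel as a fixed block (adjusted p = 0.162). Setting the missing reactions to the highest Cq of the panel ended the calls of Il8rb and Pglyrp1 (adjusted p = 0.505 and 0.431), both without a Cq in healthy mouse 13, and those of Camp (0.0713), Ela2 (0.382), Ltf (0.204) and both S100a8 assays (0.323 and 0.0594), while every difference stayed above 0.

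The 7 genes of this list that did not pass include those that monocytes and macrophages also express. Itgam (CD11b) was at medians of 0.58 and 0.77 in healthy and tumor-bearing mice, with a difference of 0.09 ± 0.14 (adjusted p = 0.862). Itgb2, its integrin partner, differed by 0.04 ± 0.09, the oxidase subunits Ncf1 and Cybb by 0.04 ± 0.14 and 0.12 ± 0.13, and Il8ra (current symbol Cxcr1) by 0.21 ± 0.22. Trem1, which amplifies inflammatory signals of neutrophils and monocytes, had a larger estimate of 1.05 ± 0.40 (adjusted p = 0.24) that was positive in 4 of 4 pairs, and Ltb4r1, the leukotriene B4 receptor, 0.45 ± 0.25. These intervals are narrow for the shared phagocyte genes and wide for Trem1.

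**Figure D2:**
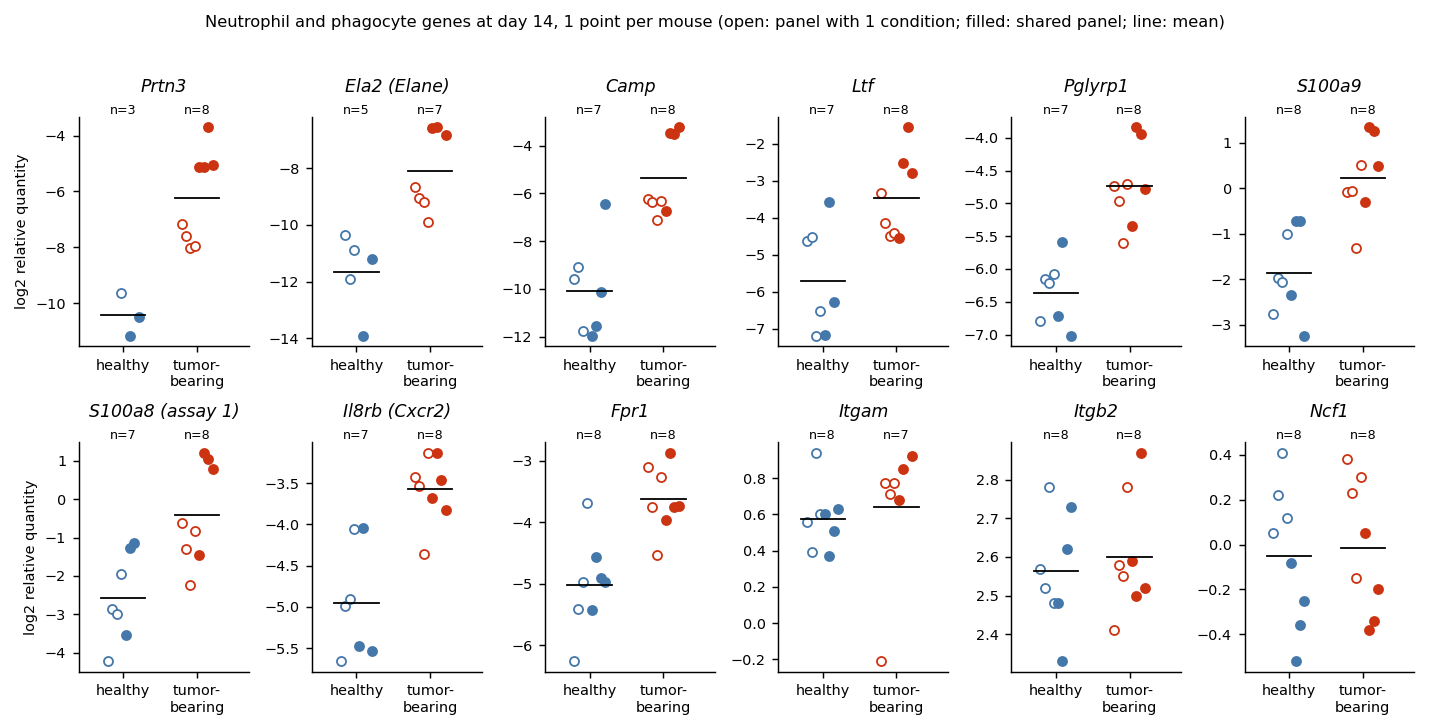
Log2 relative quantity of 12 neutrophil and phagocyte genes in each mouse with a value (n above each column), with the mean as a line; open circles are mice on panels D and G and filled circles mice on shared panels. Prtn3 and Ela2 do not overlap between conditions and are higher in tumor-bearing mice on shared panels, while Itgam, Itgb2 and Ncf1 overlap widely between conditions.

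The rises were high in the same mice. Tumor-bearing mouse 20 was among the top 3 of its condition in 10 of 10 assays that rose, mouse 21 in 7 of 9 and mouse 22 in 6 of 10, and all of them were on shared panels. Tumor-bearing mouse 17 had a median rank of 8, the last place. Among healthy mice, mouse 12 was in the top 3 in 8 of 10 assays and mouse 10 in 7 of 9. Within the 8 tumor-bearing mice, 10 genes of the neutrophil lists with a value in every mouse and no split into separate levels were set against S100a9, with exact permutation tests. Pglyrp1 followed it most closely, at Pearson's r = 0.954 (exact p = 0.000273, adjusted p = 0.00273) and Spearman's rho = 0.929 (exact p = 0.00223, adjusted p = 0.0223), and r was 0.924 without mice 17 and 20, the farthest from the median of S100a9. Trem1 had r = 0.854 (exact p = 0.00578, adjusted p = 0.0254), rho = 0.857 (exact p = 0.0107, adjusted p = 0.0536) and r = 0.727 without those mice, and Chi3l3 r = 0.848 (exact p = 0.00761, adjusted p = 0.0254), rho = 0.738 (exact p = 0.0458, adjusted p = 0.115) and r = 0.76. The relations of Il8rb and Fpr1 to S100a9 rested on mice 17 and 20, with r of 0.772 and 0.691 falling to 0.227 and -0.03 without them. Ltf had r = 0.776 (exact p = 0.0214, adjusted p = 0.0518). The other 4 genes did not pass, with r of 0.382 for Itgb2 (rho 0.143), -0.252 for Il8ra (rho -0.286), -0.399 for Ncf1 (rho -0.5) and -0.428 for Cybb (rho -0.619). Panel G and the shared panels hold 4 tumor-bearing mice each, too few for a correlation within either. Means of S100a9 and Pglyrp1 in these mice were -0.23 and -5.0 on panel G, and 0.69 and -4.48 on shared panels. The permutations shuffled mice across panels, so levels by panel and co-variation between mice cannot be told apart in these p-values.

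**Figure D3:**
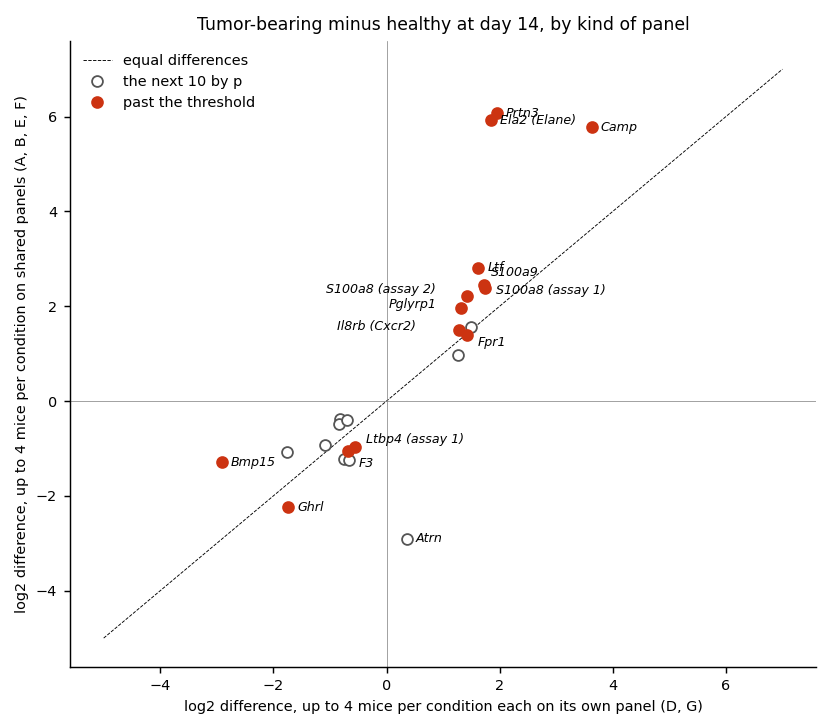
Log2 difference between tumor-bearing and healthy mice on shared panels (y axis) against that on panels D and G (x axis), up to 4 mice with a value per condition each, for the 14 assays past the threshold (red) and the 10 with the next smallest p (open); the dashed line marks equal differences. All 14 red points have the same sign on both axes, Prtn3, Ela2 and Camp lie above the line, and Atrn has opposite signs.

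The 4 assays that fell were Bmp15, Ghrl, F3 and Ltbp4, and none of these calls held under every omission of 1 mouse. Bmp15, a growth factor of the TGF-beta superfamily known from oocytes, gave late reactions between cycle 26.8 and cycle 31.6. It ran from -10.02 to -8.0 in 6 healthy mice, median -9.70, and from -13.24 to -10.01 in 8 tumor-bearing mice, median -11.10, with only tumor-bearing mouse 21 inside the healthy range. The difference was -1.90 ± 0.42 (adjusted p = 0.0169), at -2.91 on panels D and G and -1.29 on shared panels, and its adjusted p was 0.0504 without healthy mouse 11, 0.194 without panels D and G and 0.422 with the panel as a fixed block. With the highest Cq of the panel in place of missing reactions the difference was -0.04 (adjusted p = 1). Ghrl, the gene of the appetite hormone ghrelin, had a Cq in 4 healthy mice, at -11.91, -9.96, -9.70 and -9.65, and in 5 tumor-bearing mice between -12.54 and -11.71. Its difference of -1.90 ± 0.45 (adjusted p = 0.0404) had no panel pair with both values. It did not pass without healthy mouse 8, 10, 11 or 12 or tumor-bearing mouse 15, 18, 19, 21 or 22, with adjusted p-values up to 0.139 and differences from -1.99 to -1.69, nor with the panel as a fixed block (-3.46, adjusted p = 0.422). With the highest Cq of the panel in place of missing reactions it turned to 0.62 (adjusted p = 1).

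F3 encodes tissue factor, the cell-surface starter of coagulation. It ran from -1.50 to 0.30 in 7 healthy mice, median -0.92, and from -1.92 to -1.37 in 7 tumor-bearing mice, median -1.64, so that 5 tumor-bearing mice were below every healthy mouse. The difference was -0.86 ± 0.21 (adjusted p = 0.0283) and was negative in 3 of 3 pairs, at -1.05 on shared panels and -0.68 on panels D and G. The call was lost without healthy mouse 11 or 14 or tumor-bearing mouse 19 or 22 (adjusted p up to 0.0744, differences of -0.85 to -0.80). The adjusted p of F3 was 0.0687 with the scaling to median Cq and 0.212 with the panel as a fixed block. Over all alternatives F3 passed in 18 of 28, with differences from -1.05 to -0.68, and its adjusted p rose further in the least favourable one. Ltbp4, whose product binds latent TGF-beta in the matrix, ran in assay 1 from -3.22 to -1.69 in healthy and from -3.94 to -2.97 in tumor-bearing mice, with a difference of -0.78 ± 0.21 (adjusted p = 0.0456), at -0.97 on shared panels and -0.55 on panels D and G (fixed block, adjusted p = 0.162). Assay 2 of the same gene gave -0.68 ± 0.23 (adjusted p = 0.17). The call of assay 1 passed without 4 of the 16 mice left out in turn. It was lost without healthy mouse 7, 8, 9, 12, 13 or 14 or tumor-bearing mouse 16, 17, 19, 20, 21 or 22. Adjusted p-values then ran up to 0.106, with differences from -0.81 to -0.63. The difference was -0.52 (adjusted p = 0.274) without the 3 mice that stood apart. Over all alternatives assay 1 passed in 9 of 29, with an adjusted p of up to 0.895 by limma.

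Adipocyte genes varied widely among healthy mice. Adipoq, the adiponectin gene, was at -0.19 in healthy mouse 8, -1.75 in mouse 12, -2.20 in mouse 7 and -3.37 in mouse 14, and between -11.08 and -5.19 in the other 4 healthy mice, against -6.83 to -4.46 in tumor-bearing mice. Cfd ran from 0.03 in healthy mouse 8 to -10.65 in mouse 9, with the same 4 mice highest; Adipoq and Cfd were named after their values were seen. Healthy mouse 8 was also the highest mouse for F3 and Bmp15, and healthy mice 8, 12 and 14 held the highest values of Cd1d1. Healthy mice 7, 8, 12 and 14 were above every tumor-bearing mouse for Krt7 and Krt8. Of 12 adipocyte and metabolic assays tested, 1 (Ghrl) fell and none rose, with a median of -0.50 over the list. The 3 of these assays with a value in all 16 mice had a mean distance from the healthy median of -2.57 to 2.28 in healthy mice and of -1.38 to -0.02 in tumor-bearing mice. The leptin gene Lep differed by -1.91 ± 0.84 (adjusted p = 0.4) and the resistin gene Retn by -2.02 ± 1.09 (adjusted p = 0.541). The part of adipose or epithelial tissue in the lower values of F3, Bmp15, Ghrl and Ltbp4 was not tested.

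**Figure D4:**
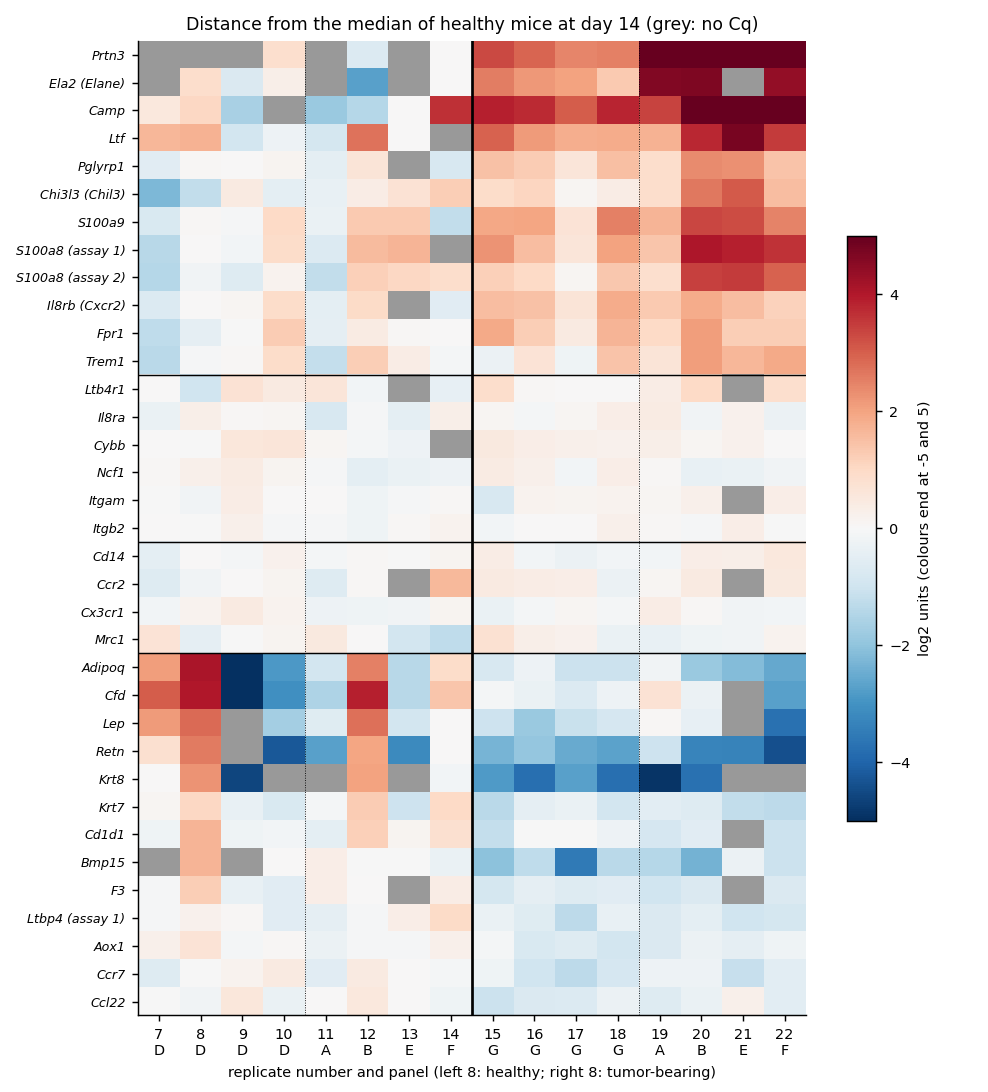
Distance of each value from the median of the healthy mice, in log2 units, for 35 assays (rows) in the 16 mice (columns, labelled with replicate number and panel; healthy left, tumor-bearing right of the thick line; grey, no Cq). Neutrophil genes at the top are red in tumor-bearing mice, darkest in mice 20 to 22, the phagocyte and macrophage genes in the middle are pale in nearly all mice, and the adipocyte and keratin genes range from red in healthy mice 8 and 12 to blue in healthy mice 9 and 10.

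The 10 assays with the next smallest p-values, none past the threshold, were Aox1, Chi3l3, Ccr7, Krt7, Tnfsf15, Cd1d1, Il17d, Ccl22, S100b and Atrn. Ccr7, a homing receptor for lymph nodes, was at a median of -4.72 in healthy and -5.40 in tumor-bearing mice, with a difference of -0.64 ± 0.19 (adjusted p = 0.0788). Ccl22, a dendritic cell chemokine for regulatory T cells, had -0.53 ± 0.17 (adjusted p = 0.154), and Cd1d1, which presents lipids to T cells, -0.95 ± 0.30 (adjusted p = 0.113). Tnfsf15, a TNF family cytokine, ran from -11.55 to -9.43 in healthy and from -9.89 to -8.68 in tumor-bearing mice, with 1.10 ± 0.33 (adjusted p = 0.0836) and 4 of 4 pairs positive. Aox1 had -0.57 ± 0.16 (0.0682), Krt7 -1.0 ± 0.30 (0.0788), Il17d -1.39 ± 0.45 (0.144) and S100b -1.0 ± 0.33 (0.162). Atrn showed a split by panel among healthy mice, between -2.28 and -1.19 on panel D and between 0.34 and 2.08 on shared panels, while 7 of 8 tumor-bearing mice lay between -1.91 and -1.55. Its difference was -2.91 on shared panels and 0.36 on panels D and G.

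Monocyte and macrophage markers gave no call. All 6 were tested, with a median of 0.11, and 4 estimates were above 0 and 2 below, from -0.15 to 0.22. Among them were 0.14 ± 0.13 for Cd14, 0.22 ± 0.25 for the mannose receptor Mrc1 and 0.20 ± 0.25 for the monocyte chemokine receptor Ccr2. Of 20 assays of classical macrophage activation and 13 of alternative activation, none passed, with medians of -0.22 and 0.00. The chemokine ligands of the chemokine receptor that rose did not pass either, and the 6 assays of CXCR2 ligands had a median of -0.16. Cxcl1 (assay 2) was at -0.30 ± 0.26, Cxcl2 at -0.47 ± 0.42, Cxcl5 at 0.35 ± 0.32 and Ppbp at -2.23 ± 1.25. For Ppbp healthy mouse 13 stood apart, at a Cq of 10.4 against a healthy median of 23.3. Of the 9 assays of colony-stimulating factors and their receptors, none passed. The 2 assays of Csf3, the granulocyte growth factor gene, had opposite signs at 0.99 ± 0.61 and -0.90 ± 0.57 and were at or below -8.84 in every mouse.

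Lymphoid and dendritic lists also gave no call and had medians below that of all assays. The 7 T cell markers had a median of -0.72, with 6 estimates below 0 and 1 above. The regulatory T cell factor Foxp3 was at -1.07 ± 0.40 (adjusted p = 0.24) and the costimulator Icos at -0.86 ± 0.35 (adjusted p = 0.306). The estimate above 0 was Il7r at 0.318 ± 0.225. Foxp3 ran from -8.82 to -7.14 in healthy and from -10.90 to -7.57 in tumor-bearing mice, so the groups overlapped. Of the 10 assays for dendritic cells and antigen presentation none passed (median -0.21, 6 estimates below 0 and 4 above). None of 22 for lymphocyte-attracting chemokines and receptors passed (median -0.24, 16 estimates below 0 and 6 above). The 13 for mast cells, basophils and eosinophils gave no call either (median -0.38). In the last list the histamine receptor Hrh1 (assay 1) had -0.69 ± 0.23 (adjusted p = 0.162), its assay 2 had 0.40 ± 0.63, and the 2 assays of the eosinophil receptor Ccr3 -0.53 ± 0.22 and -0.39 ± 0.18. Its 13 estimates went both ways, 8 below 0 and 5 above, from -1.25 to 0.96. With the scaling to median Cq the medians of these lists stayed below 0, at -0.63, -0.10, -0.13 and -0.26.

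Among pathway lists, the calls were those already named. Of 30 assays of the TGF-beta and BMP superfamily, 2 (Bmp15 and assay 1 of Ltbp4) fell and none rose; 24 of 30 estimates were below 0 and the median was -0.25. Bmp7 (assay 2), a bone morphogenetic protein, had -1.51 ± 0.54 (adjusted p = 0.224), and its assays 1 and 3 had -0.52 ± 0.69 and -0.90 ± 0.45. F3 was the only call among 8 coagulation assays, whose median was -0.28. No assay passed among 24 for Toll-like receptors and NF-kappaB (median 0.01, 12 estimates above 0 and 12 below). Among these were Tlr4 at 0.24 ± 0.11, Tlr11 at -0.39 ± 0.18 and Myd88 at 0.18 ± 0.09. None passed among 21 for complement (median -0.10), 13 for interferon signalling (median 0.00) or 16 for the IL-1 family (median 0.02). The same held for 17 of the IL-6 family (median -0.20), 15 for eicosanoids (median -0.05) and 28 for TNF ligands and receptors (median -0.11). With the scaling to median Cq the last 2 of these medians turned to 0.06 and 0.04. Of 5 epithelial and tumor cell assays none passed; Krt8, an epithelial keratin that carcinoma cells also express, had the largest estimate, -3.64 ± 1.25 (adjusted p = 0.195), and was lower in the tumor-bearing mice. Krt8 had a Cq in 5 healthy mice between -9.63 and -2.79 and in 6 tumor-bearing mice between -9.94 and -7.76.

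Whether a reaction gave a Cq at all was compared for the 276 assays with a Cq in some but not all of the 16 mice. None passed by Fisher's exact test with Benjamini-Hochberg adjustment (percent called 0.0%), and 3 had an unadjusted p under 0.05. After Itgb2l these were Prtn3, in 3 healthy and 8 tumor-bearing mice (exact p = 0.0256), and Cxcl17, a mucosal chemokine, in 7 healthy and 2 tumor-bearing mice (exact p = 0.0406). Prok2 (assay 2), a myeloid chemokine-like factor, had a Cq in 0 healthy and 4 tumor-bearing mice (exact p = 0.0769). Assay 1 of the same gene had one in 1 healthy and 3 tumor-bearing mice (exact p = 0.569). A Cq was more frequent in tumor-bearing mice for 140 assays and in healthy mice for 75. These counts make no allowance for healthy mice 13 and 14 and tumor-bearing mouse 21, which lacked 173, 113 and 159 reactions.

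The day 14 difference was then set against those of day 7 and day 21, which had 3 mice per condition each. No assay passed for day 14 against day 7 (0 of 564, with 21 at an unadjusted p under 0.05) or against day 21 (0 of 571, with 32), by limma. With the panel as a fixed block 1 assay passed in each, Ela2 for day 14 against day 7 (6.62 ± 1.18, adjusted p = 0.0483) and Atrn for day 14 against day 21 (-3.03 ± 0.60, adjusted p = 0.0446). In that fit panels D and G, with 1 condition each, add nothing to a difference. The day 14 part of the Ela2 value thus rests on shared panels, where 2 healthy mice had a value. Within day 21, 7 of 573 assays passed (1.22%), and within day 7 none of 565 did (13 at an unadjusted p under 0.05). The calls of day 21 were Camp, Prtn3, Ela2, Ltf, Chi3l3 and Itgb2l, all higher, and Ccr7, lower at -1.18 ± 0.29 (adjusted p = 0.0427, limma). Camp differed by -0.48 ± 1.25 at day 7, 4.81 ± 0.73 at day 14 and 6.59 ± 1.11 at day 21. Its day 14 difference exceeded that of day 7 by 5.29 ± 1.45, with an adjusted p of 0.261. Prtn3 was at 0.63 ± 1.16, 4.39 ± 0.80 and 5.76 ± 1.05, and Ela2 at -0.60 ± 1.13, 3.71 ± 0.76 and 5.44 ± 1.01. The estimates of Il8rb and Fpr1 were 0.60 ± 0.39 and 0.67 ± 0.47 at day 21, against 1.39 and 1.40 at day 14, and the differences between these days were 0.79 ± 0.47 and 0.73 ± 0.55. F3 was at 0.21 ± 0.30 and 0.12 ± 0.30 at days 7 and 21. Ltbp4 (assay 1) was at -0.72 ± 0.36 at day 7, and its day 14 difference was -0.06 ± 0.42 from that. The other assays with the smallest p for a difference between days were Hrh1 (assay 1), lower at day 14 than at day 7 by -1.58 ± 0.42, and Il27, higher by 1.86 ± 0.49, both with an adjusted p of 0.261. Against day 21 they were Il19 at -2.74 ± 0.70, Bmp15 at -2.80 ± 0.82 and Fabp4 (assay 2) at -5.05 ± 1.53, with an adjusted p of 0.468 each.

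**Figure D5:**
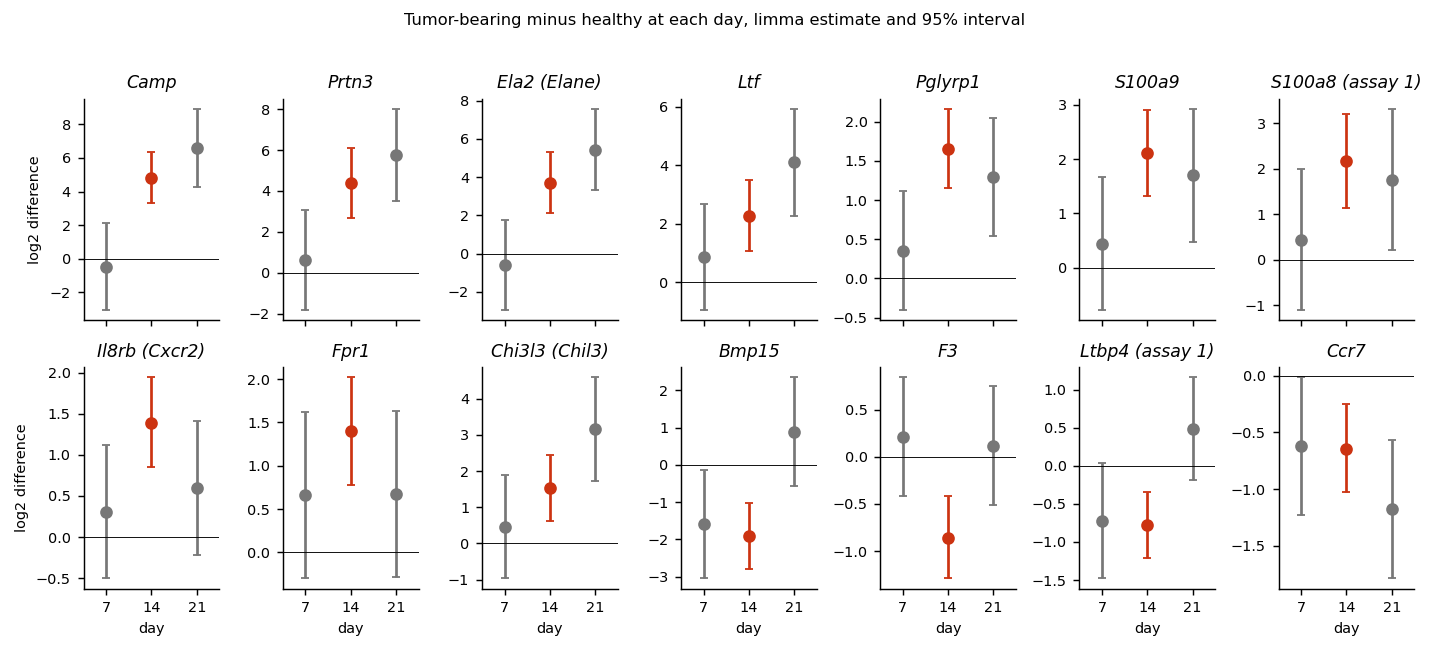
Log2 difference, tumor-bearing minus healthy, at days 7, 14 and 21 for 14 assays, as the limma estimate with its 95% interval; day 14 is red. The granule genes Camp, Prtn3, Ela2 and Ltf have intervals above 0 at days 14 and 21 and around 0 at day 7, and F3 has an interval below 0 at day 14 alone. With the panel as a random block no difference between days passed the adjusted threshold. As a fixed block, Ela2 passed for day 14 against day 7, resting at day 14 on 2 healthy mice with a value on shared panels.

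The authors' deposited table gives fold changes of 25.9 for Camp, 18.5 for Prtn3, 11.7 for Ela2, 4.23 for S100a9 and 0.559 for F3 at day 14. These are means over the mice with a value, without a panel term, and the fitted folds beside them were 28.0, 20.95, 13.1, 4.34 and 0.552.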

How the data were processed

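Expression of 648 assays was measured by RT-qPCR in 28 implants, 1 per mouse. Per the labels' protocols, scaffolds were homogenized, total RNA was reverse transcribed, and cDNA was run on TaqMan OpenArray Mouse Inflammation panels. The deposited raw values are Cq, whose score is a cycle number, and the authors' normalized values, a linear ratio to reference genes, were deposited beside them, per the file headers. The software that called the Cq is not given in the sources used here. Checked against the raw Cq, the deposited ratio is 2 to the power of a reference Cq of the sample minus the assay's Cq; the genes behind that reference Cq are not reported here. A shift in that reference would move every assay of a sample.

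Reactions without a Cq were left as missing values. Testing needed values in 50% or more of the samples of some group and 2 or more in each group compared. The log2 values were fitted with limma 3.58.1 (R 4.3.3), with 6 group means over all 28 samples and the panel as a random block (statmod 1.5.0; correlation 0.0535), and p-values were adjusted by Benjamini-Hochberg over all assays tested. In data simulated for day 14 on 588 assays, true differences of 0.5, 1, 2 and 4 log2 units were recovered in 60%, 86%, 92% and 100% of 50 assays each, and 6.11% of calls were false. The changed assays were drawn from those with few missing values at day 14. Many more assays were changed than the 14 called here, which makes the adjusted threshold easier to pass. These rates can therefore be higher than those in the measured data, and an assay without a call may still differ. Precision is set by the number of mice, and the standard error had a median of 0.24. Fisher's and permutation tests used scipy 1.17.1.

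Assays were matched to RefSeq symbols through accessions (618 matched 1 gene); table symbols are printed, with the current one beside them. Named genes are those past the threshold, the 10 next by p, all measured neutrophil genes, up to 4 with the smallest p of each other list, and the smallest p-values for days and detection. The members and lists were chosen with earlier results of these data known. Alternatives were other panel terms, samples, normalization, treatment of missing reactions, filters and priors, and each mouse left out; the run without the 3 mice with over 100 missing reactions and the values per panel pair were added after seeing the data.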

Additional observations from a re-analysis of the deposited data

Results flagged for a closer look

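In 237 groups of 4 to 8 mice of the named assays, 27 values stood apart from the rest of their group by Dixon's test, which flags about 1 group in 20 by chance. All values are log2 relative quantities at day 14. Tumor-bearing mouse 15 held 7 of them, being highest for Atrn (-0.12) and Alox5 assay 2 (-2.57) and lowest for Itgam (-0.21), Tnf (-6.5), Ccr6 (-11.7), Ccr3 assay 1 (-5.72) and Bdkrb2 (-12.21). Healthy mouse 13 held 6, being highest for Ppbp (8.0), Kit (3.01), Jak1 (1.31), Il1rap (-1.07) and Alox5 assay 2 (-1.85) and lowest for C3ar1 assay 1 (0.8). Healthy mouse 14 held 4, being highest for Ccr2 (0.92), Ptgs2 (6.18) and Hprt1 assay 4 (0.58) and lowest for Cftr (-10.65). Healthy mouse 8 was highest for Bmp15 (-8.0) and for B2m (11.83). Healthy mouse 9 was lowest for Ghrl (-11.91) and highest for Itgam (0.94), and healthy mouse 7 was lowest for Cd14 (-0.58) and highest for Egfr assay 1 (-0.87). Tumor-bearing mouse 22 was lowest for S100b (-9.94), Csf2ra (-0.05) and Cfd (-6.71), and tumor-bearing mouse 21 was lowest for Havcr2 (-3.49). None of the 10 assays that rose held such a value.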

How the results depend on the processing

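The count of 14 assays moved to 6 with day 14 samples alone, and to 4 (3 of them shared, and Itgb2l) with the largest Cq in place of missing reactions. It was 2 among assays with a value in all 16 mice (355 tested) and ran from 8 to 15 with each mouse left out. By the exact permutation test it was 0, with 56 at an unadjusted p under 0.05. The smallest possible p of that test, 0.000155, is too large for a lone assay to pass but not for several together. Other settings gave 11 to 16. With the panel as a fixed block, 11 passed, 8 of them shared, and 1 assay passed for day 14 against day 7 (Ela2, 6.62 ± 1.18) and 1 for day 14 against day 21 (Atrn, -3.03 ± 0.60). Without panels D and G, 12 passed, 9 of them shared; with those panels as the only day 14 mice and the other days kept for the spread, 16 passed, 8 shared. Ghrl turned to 0.62 with the largest Cq in place of missing reactions, and Atrn to 0.36 on panels D and G alone; the cause was not tested. No other named value past or next to the threshold changed sign. S100a9 passed in 28 of 29 alternatives and Camp in 26 of 28, while Ltf passed in 13 of 28, Ghrl in 10 of 27 and Ltbp4 (assay 1) in 9 of 29. By replicate number, no paired analysis was possible because no number is shared between groups; pairing by panel is the fixed block above. Late Cq and missing reactions limit Prtn3, Ela2, Ghrl, Bmp15 and Itgb2l.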

Other observations

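With all 16 mice counted, healthy implants varied more between mice than tumor-bearing ones. This was hardly so without the 3 mice with many missing reactions. Over the 355 assays with a value in all 16 mice, the SD was larger in healthy mice for 232, with medians of 0.46 and 0.35 log2 units. Without the 3 mice with many missing reactions it was larger in healthy mice for 190 of 355, with medians of 0.35 and 0.33.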
